A study of Mus musculus with 16 samples.

Results

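The immediate early genes *Fos*, *Fosb*, *Jun*, *Junb*, *Jund*, *Egr1*, *Atf3* and *Ier2* and the inducible heat shock genes *Hspa1a* and *Hspa1b* were followed through the cell types of the neonatal mouse testis. The list was made as a readout of the stress of taking tissue apart, and all 10 genes were found among the 30451 of the table. Single-cell RNA sequencing had been carried out on whole testes at postnatal day 2 that were dissociated with TrypLE, a recombinant trypsin substitute, and captured with a droplet kit that reads the 3' end of transcripts. One genotype was wild type. The other was a germ-cell-specific *Ddx5* conditional knockout, made by crossing floxed *Ddx5* mice with *Mvh*-Cre mice, in which a germ cell promoter drives Cre. The somatic cells that fill most of both libraries are therefore not the cells meant to lose *Ddx5*. The labels list 8 samples of each genotype, on lanes 2 and 3 for wild type and lanes 3 and 4 for the knockout, but the barcodes carry only 1 of 2 suffixes and no sample name. The suffixes were paired with the genotypes by the study's numbers of kept cells. Each genotype is therefore 1 library, no test was possible, and genotype cannot be told apart from lane, animal or handling.

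Of 12186 barcodes, 11279 were kept, by a minimum of 2000 detected genes and a maximum of 10% mitochondrial UMIs (unique molecular identifiers, which count captured RNA molecules): 6329 of the wild-type library and 4950 of the other, with median depths of 11170 and 11668.5 UMIs. The 2 libraries shared 12 barcode sequences. The UMIs of *Ddx5* went against the label of the second library, while those of Cre went with it. *Ddx5* stood at 1152 counts per 1000000 UMIs (CPM, interval 1120 to 1185) in 125 wild-type germ cells and at 1736 CPM (1618 to 1860) in 12 germ cells of the other. Cre had 0 UMIs in the first library and 20 in the second, all within these 12 cells. The second is therefore called the library labelled knockout. Erythroid markers, which none of the gated cell types should express, summed to 119.6 and 647.5 CPM in the wild-type and the labelled library.

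Immediate early genes are transcribed within minutes of a stimulus, without new protein synthesis, from promoters that hold binding sites for factors already present in the cell. FOS and JUN family proteins pair to form AP-1, EGR1 is a zinc finger factor, ATF3 is a stress-induced repressor of the ATF/CREB family, and IER2 is a nuclear regulator of transcription. *Hspa1a* and *Hspa1b* encode the inducible HSP70 chaperone and are switched on by heat shock factor 1. Enzymatic dissociation is known to induce both groups.

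The promoters of 5 members are shown as examples that hold matches to elements known for these responses. They belong to the AP-1 genes *Fos*, *Fosb* and *Jun* and to the heat shock pair. The choice does not follow the difference between the libraries. *Junb*, which differed more than *Jun* over all kept cells and also holds such a match, is not printed. RefSeq windows on GRCm38.p6 were found for 8 of the 10 members, and the 250 bases before the start site are printed in the direction of transcription. They are *Fos* (chr12:85473640-85473889, plus strand), *Fosb* (chr7:19310046-19310295, minus), *Jun* (chr4:95052223-95052472, minus), *Hspa1a* (chr17:34972157-34972406, minus) and *Hspa1b* (chr17:34959239-34959488, minus). Capitals mark the short cyclic AMP response element TGACG in *Fos* and *Fosb*, the AP-1-like site TGACATCA in *Jun*, and a heat shock element GAANNTTC in the *Hspa1* genes.
Fos: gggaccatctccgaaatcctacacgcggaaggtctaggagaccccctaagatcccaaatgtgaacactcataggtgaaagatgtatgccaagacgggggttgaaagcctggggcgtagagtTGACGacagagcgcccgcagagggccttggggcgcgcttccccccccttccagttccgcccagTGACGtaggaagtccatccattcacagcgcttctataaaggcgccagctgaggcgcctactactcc
Fosb: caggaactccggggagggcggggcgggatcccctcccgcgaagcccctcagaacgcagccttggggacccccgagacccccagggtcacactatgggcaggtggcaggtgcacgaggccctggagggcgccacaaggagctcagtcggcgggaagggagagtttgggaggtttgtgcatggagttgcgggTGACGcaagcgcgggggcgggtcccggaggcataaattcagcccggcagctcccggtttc
Jun: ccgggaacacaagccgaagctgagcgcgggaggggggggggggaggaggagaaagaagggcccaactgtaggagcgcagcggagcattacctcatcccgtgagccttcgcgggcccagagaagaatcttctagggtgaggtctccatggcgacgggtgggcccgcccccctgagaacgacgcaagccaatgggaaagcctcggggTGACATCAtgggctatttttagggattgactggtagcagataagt
Hspa1a: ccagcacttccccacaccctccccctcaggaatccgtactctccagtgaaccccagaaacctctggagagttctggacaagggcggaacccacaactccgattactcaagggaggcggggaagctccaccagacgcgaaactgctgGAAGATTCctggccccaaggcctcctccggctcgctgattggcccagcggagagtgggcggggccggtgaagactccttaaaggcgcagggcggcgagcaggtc
Hspa1b: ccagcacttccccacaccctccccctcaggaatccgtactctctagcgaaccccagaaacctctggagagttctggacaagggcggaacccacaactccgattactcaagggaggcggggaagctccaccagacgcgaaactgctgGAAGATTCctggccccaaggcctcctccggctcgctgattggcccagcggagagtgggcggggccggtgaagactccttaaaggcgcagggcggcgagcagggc

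Both strands were searched. TGACG lay at -129 and -66 in *Fos* and at -60 in *Fosb*, and 17.8% of all 32851 windows of this length hold it on either strand. It was also found in *Junb* at -106 and, on the other strand, in *Atf3* at -7. The *Jun* site lay at -45 and is held by 2.93% of windows. The full element TGACGTCA, the AP-1 site TGAGTCA, the other heat shock arrangement TTCNNGAA and the CArG box, held by 1.55%, 4.46%, 7.17% and 1.47% of windows, were in none of the 8, which says only that these letters are not in these 250 bases. GAANNTTC lay at -104 in both *Hspa1* genes and is held by 6.69% of windows. It was also in *Jun* at -128. The *Hspa1a* and *Hspa1b* windows differed by the substitutions C44T, T47C and T249G (base of *Hspa1a*, position from 1 at the left end of the window, base of *Hspa1b*), none of them in the capitals. Their transcripts shared 1074 windows of 150 bases, 38.1% of those of *Hspa1a* and 40.5% of those of *Hspa1b*. None of the 351 windows in the last 500 bases, the part nearest to where this kit primes, was shared. Reads from the shared stretch cannot be assigned to either gene, so the values of the 2 genes are also given as a sum.

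Cell types were taken by limits on marker genes, none of them a member. Sertoli cells, the nurse cells of the tubule, needed at least 3 *Amh* UMIs (2256 cells in wild type, 1635 in the library labelled knockout). Leydig cells, which make androgen, needed at least 20 UMIs of *Cyp11a1*, *Cyp17a1* and *Hsd3b1* together (177 and 143). Peritubular myoid cells needed 5 of *Acta2* and 2 of *Myh11* (764 and 524), stromal cells 1 of *Pdgfra* and at most 2 of *Amh* (3590 and 3005), and macrophages 5 of the C1q genes (31 and 23). Germ cells needed at least 3 of the 4 genes *Dazl*, *Ddx4*, *Mael* and *Stk31* (125 and 12). A barcode could pass several gates, and 12.2% did. Of myoid cells, 88.2% and 91.2% also passed the stroma gate, which is broad, and 31.2% of wild-type germ cells passed the Sertoli gate. Each list of defining markers was highest in its own gate in both libraries. The Leydig marker *Hsd3b6* was at 0 in the Leydig gate of both. The summed Leydig markers reached 23329 and 23863 CPM in the Leydig gate and at most 1969 CPM in the other gates.

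All 8 immediate early genes were lower in the library labelled knockout when the kept cells were pooled, and the heat shock pair was nearly level. Of the 19848 genes with at least 20 UMIs, 55.3% were lower. *Fos* stood at 95.6 CPM (7926 UMIs) against 47.3 CPM (3132 UMIs), a ratio of 0.495 (0.475 to 0.516). *Fosb* stood at 27.7 and 6.62 CPM, a 4.18-fold difference, and *Atf3* at 9.37 and 2.96 CPM, a 3.17-fold difference. *Junb* stood at 124 and 76.4 CPM. These were the 4 members past 1.5-fold, while 9.57% of those genes were lower past that limit. *Jun* (361 and 251 CPM), *Egr1* (429 and 321), *Ier2* (247 and 189) and *Jund* (1184 and 977) were lower by less, with ratios of 0.695, 0.748, 0.765 and 0.825. *Hspa1a* (22.7 and 21.4 CPM) had a ratio between 0.876 and 1.01, and *Hspa1b* (7.27 and 7.11 CPM) between 0.865 and 1.11. The median gene of the table had a log2 ratio of -0.02. All intervals are exact and cover the counting of UMIs only, not the spread between cells or animals.

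In the stroma all 8 were lower as well. *Atf3* had 480 UMIs (12.3 CPM) in wild type against 80 UMIs (2.41 CPM), a 5.10-fold difference (4.02 to 6.55). An *Atf3* UMI was found in 9.39% (8.45 to 10.4) of wild-type and 1.86% (1.41 to 2.41) of labelled stromal cells. How much of the lower share is free RNA was not tested. *Fosb* was 4.85-fold lower (35.8 and 7.39 CPM), *Fos* 2.43-fold (119 and 49.0 CPM), *Jun* 1.80-fold (498 and 277 CPM) and *Junb* 1.77-fold (152 and 85.9 CPM). *Egr1* and *Ier2* were 1.42-fold lower and *Jund* 1.37-fold. With *Hspa1a*, 6 of the 10 members were lower past 1.5-fold, against 5.27% of genes in this gate, and the interval of 9 lay below a ratio of 1, as it did for 14.5% of genes. At a common depth of 5000 UMIs per cell, *Fos* was found in 28.8% (27.3 to 30.4) of 3524 wild-type cells and in 14.1% (12.9 to 15.4) of 2950 cells of the other library. Without thinning the shares were 41.3% and 22.96%, at median depths of 9838.5 and 9933 UMIs. Erythroid markers (76.3 and 1005 CPM) and macrophage markers (49.9 and 121 CPM) were higher in the labelled library in this gate, and their part in the result was not tested.

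Sertoli cells had the lowest *Fos*, *Jun* and *Junb* of the somatic types. There too all 8 immediate early genes were lower in the library labelled knockout, but the AP-1 genes split. *Fos* (63.2 and 34.0 CPM), *Fosb* (20.1 and 5.84) and *Junb* (86.5 and 51.4) were 1.86-, 3.43- and 1.68-fold lower, whereas *Jun* (177 and 161 CPM) and *Jund* (1109 and 1017) were 1.10- and 1.09-fold lower. With *Atf3* (4.95 and 1.14 CPM), 4 of the 10 members were past 1.5-fold, against 8.08% of genes. *Atf3* had a UMI in 1.71% (1.14 to 2.47) of Sertoli cells labelled knockout. In wild type the share was 5.85% (4.92 to 6.90), at median depths of 13711 UMIs against 15847 in the other library. *Insl3*, a Leydig hormone gene that Sertoli cells should lack, had a UMI in 0.931% and 1.22% of Sertoli cells. Since it is more abundant than *Atf3* over all cells (32.0 and 2.96 CPM in the labelled library) and 12 labelled Sertoli cells also passed the Leydig gate, these shares do not show how much of *Atf3* is free RNA. Erythroid markers stood at 142 and 318 CPM in the Sertoli gate and germ cell markers at 92.3 and 0.795 CPM. Stromal markers (546 and 825 CPM) and Leydig markers (109 and 181 CPM) were higher in the labelled library, and macrophage markers (30.2 and 20.5 CPM) lower. The part of these markers in the result was not tested.

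In myoid cells *Fos* (169 and 79.6 CPM), *Fosb* (28.4 and 9.83) and *Junb* (303 and 177) were 2.12-, 2.89- and 1.72-fold lower, 3 of 10 members against 5.21% of genes. *Jun* lay just inside the limit (248 and 167 CPM, 1.49-fold). Myoid cells had the highest *Egr1* and *Ier2* of the somatic types in both libraries, at 647 and 526 CPM and at 357 and 287 CPM. Erythroid markers moved in this gate as well, with 794 UMIs (79.1 CPM) against 7538 UMIs (1058 CPM), while macrophage markers were near level (79.8 and 80.9 CPM). The part of the erythroid markers in the result was not tested.

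**Figure D1:**
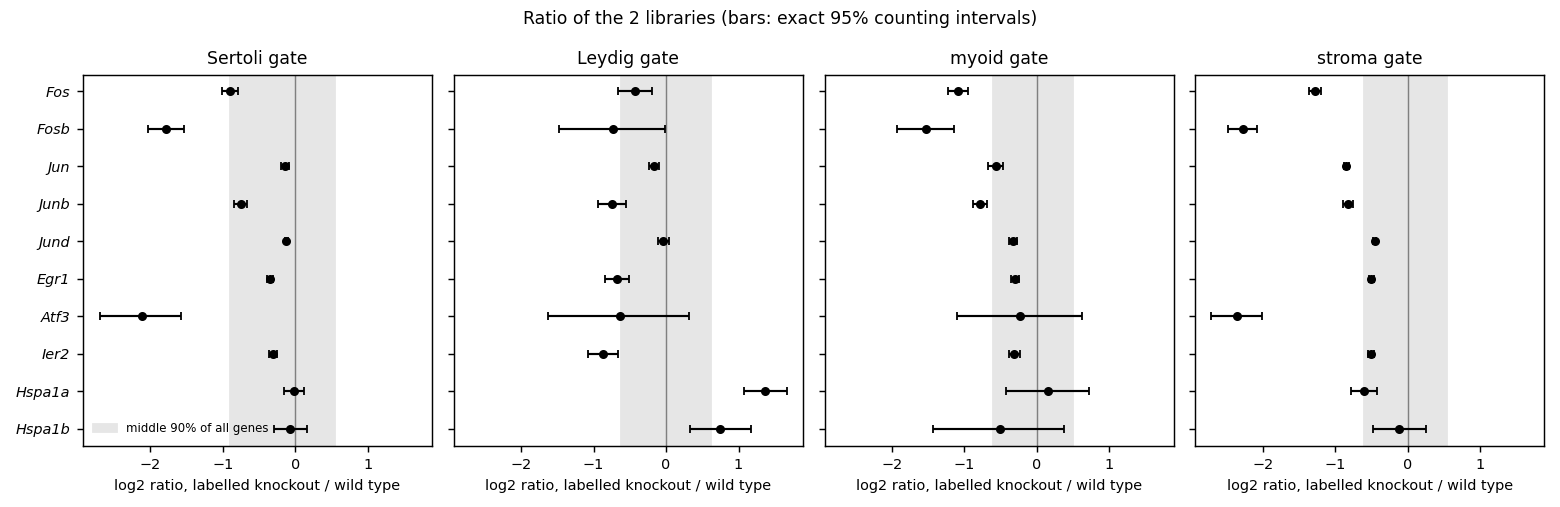
Log2 ratio of the library labelled knockout to the wild-type library for each gene (rows) in 4 gates (panels), with exact counting intervals as bars and the middle 90% of all genes with at least 20 UMIs as a shaded band. The immediate early genes lie left of 0 in all 4 panels, and the heat shock pair lies right of the band in the Leydig gate alone.

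The heat shock pair was higher in the Leydig gate of the library labelled knockout. *Hspa1a* had 136 UMIs (45.2 CPM, 37.9 to 53.4) in 177 wild-type cells and 335 UMIs (117 CPM, 104 to 130) in 143 cells of the library labelled knockout, a ratio of 2.58 (2.11 to 3.17). *Hspa1b* had 79 UMIs (26.2 CPM) and 126 UMIs (43.8 CPM), a ratio of 1.67 (1.25 to 2.24). Both were higher past 1.5-fold, as were 5.8% of the 11251 genes measured in this gate, and 99.5% of those genes had a lower ratio than *Hspa1a*. The top 10% of cells held 47.1% of the *Hspa1a* UMIs in wild type against 36.4% in the other library, and at 5000 UMIs per cell *Hspa1a* was found in 16.4% (11.3 to 22.7) and 40.8% (32.7 to 49.4) of cells (44.6% and 69.2% without thinning).

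In the same Leydig cells the immediate early genes were lower, not higher. *Ier2* (180 and 98.4 CPM), *Junb* (207 and 124), *Fosb* (15.6 and 9.39), *Egr1* (275 and 172) and *Atf3* (8.63 and 5.57) were lower past 1.5-fold, 5 of 10 members against 5.72% of genes, although *Atf3* rests on 26 and 16 UMIs and its interval (0.323 to 1.25) spans 1. *Fos* had a ratio of 0.745 (0.632 to 0.878) and *Jun* of 0.890 (0.849 to 0.934). *Jund* had a ratio of 0.973 (0.925 to 1.02).

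The mitochondrial share, used above as a filter, was high in Leydig cells, with medians of 6.80% and 6.55%. In Sertoli cells the medians were 2.80% and 2.66%. The share thus differs by cell type and is no plain measure of damage. The pair was read within bins of this share. Below 5%, the sum of *Hspa1a* and *Hspa1b* was 38.7 CPM in 42 wild-type cells and 78.3 CPM in 30 cells of the other library (ratio 2.02, 1.27 to 3.27). From 5% to 7.5% it was 79.0 and 180 CPM (2.28, 1.79 to 2.91), and from 7.5% to 10% it was 88.5 and 191 CPM (2.16, 1.66 to 2.84). The lowest bin had the lowest level in both libraries, and the intervals of the 3 ratios overlap that over all Leydig cells (2.25, 1.91 to 2.65). Erythroid markers also differed in this gate, at 4.98 CPM in wild type against 1414 CPM in the library labelled knockout, where 15.4% of the cells had such a UMI. Macrophage markers stood at 111 and 227 CPM and myoid markers at 131 and 77.2 CPM. The Sertoli gene *Amh* stood at 44.5 and 84.9 CPM, and 3.95% and 8.39% of Leydig cells also passed the Sertoli gate. The Leydig hormone gene *Insl3* was lower in the labelled library, at 1225 and 720 CPM. The part of these differences in the heat shock and immediate early values of this gate was not tested.

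**Figure D2:**
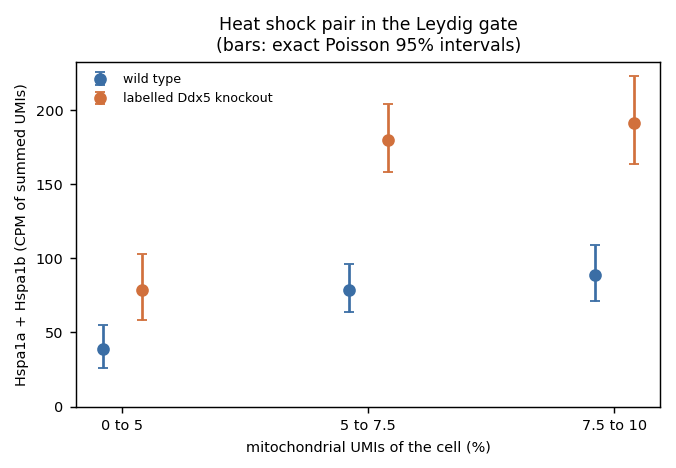
Summed *Hspa1a* and *Hspa1b* in CPM of summed UMIs for Leydig-gate cells of each library, by the percentage of mitochondrial UMIs of the cell, with exact Poisson intervals as bars. In each of the 3 bins the library labelled knockout lies above wild type, from 78.3 against 38.7 CPM in the lowest bin to 191 against 88.5 CPM in the highest.

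Stromal *Hspa1a* went the other way, with 18.4 CPM in wild type against 12.1 CPM in the library labelled knockout (ratio 0.660, 0.583 to 0.747). A single wild-type cell held 49 of the 716 UMIs. Without it the ratio was 0.708 (0.624 to 0.803), a 1.41-fold difference and no longer past the limit. Among stromal cells that passed no other gate it was 0.509 (0.441 to 0.585), and 0.550 without that cell. *Hspa1b* stood at 3.69 and 3.41 CPM in the stroma (ratio 0.922, 0.715 to 1.19). In Sertoli cells the pair was level, with *Hspa1a* at 26.6 and 26.2 CPM and *Hspa1b* at 10.2 and 9.74 CPM, and the interval of their summed ratio ran from 0.901 to 1.06.

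Macrophages and germ cells were few. Among macrophages *Fos* (455 and 206 CPM), *Jun* (462 and 272), *Junb* (429 and 236) and *Egr1* (385 and 210) were lower past 1.5-fold, 4 of the 7 members with at least 20 UMIs, in a gate where 11.8% of genes were. *Atf3* stood there at 109 CPM (62 UMIs) and 124 CPM (65 UMIs), a ratio of 1.14 (0.790 to 1.64). *Fosb* (10 and 4 UMIs), *Hspa1a* (1 and 8) and *Hspa1b* (2 and 4) were too few to compare. Erythroid markers were higher in the wild-type macrophage gate (2758 and 7.62 CPM), as were Leydig (1969 and 992 CPM) and myoid markers (418 and 122). Stromal (436 and 1141) and Sertoli markers (429 and 739) were lower there. The part of these differences in the result was not tested. Over the 5 somatic gates 24 of 47 values of the members were past 1.5-fold in either direction, as were 11.8% of 65113 values over all genes. Among germ cells *Fos* had 202 UMIs (46.7 CPM) in wild type against 0 in 12 cells of the other library, at least 5.82-fold lower by the exact interval of the ratio, and 7.22-fold lower if the group is set to 3 UMIs (6.48 CPM). *Egr1* had 1124 and 12 UMIs (260 and 25.9 CPM). The share of 0 of 12 cells with a *Fos* UMI allows up to 26.5% (Clopper-Pearson), a limit on detection and not on expression. Since 54.4% of genes were lower past 1.5-fold in that comparison, nothing is read from the 5 members that were. *Jund* was level, at 390 and 423 CPM. The 12 cells also had 34.1% ribosomal protein UMIs against 16.4% in wild type. Some somatic markers were lower in them as well. Sertoli markers stood at 1200 and 75.6 CPM, *Amh* at 152 and 2.16 CPM and macrophage markers at 101 and 6.48 CPM, and 0 of the 12 passed the Sertoli gate, while stromal markers were higher (323 and 488 CPM). The part of these differences in the values of *Fos* and *Egr1* was not tested.

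**Figure D3:**
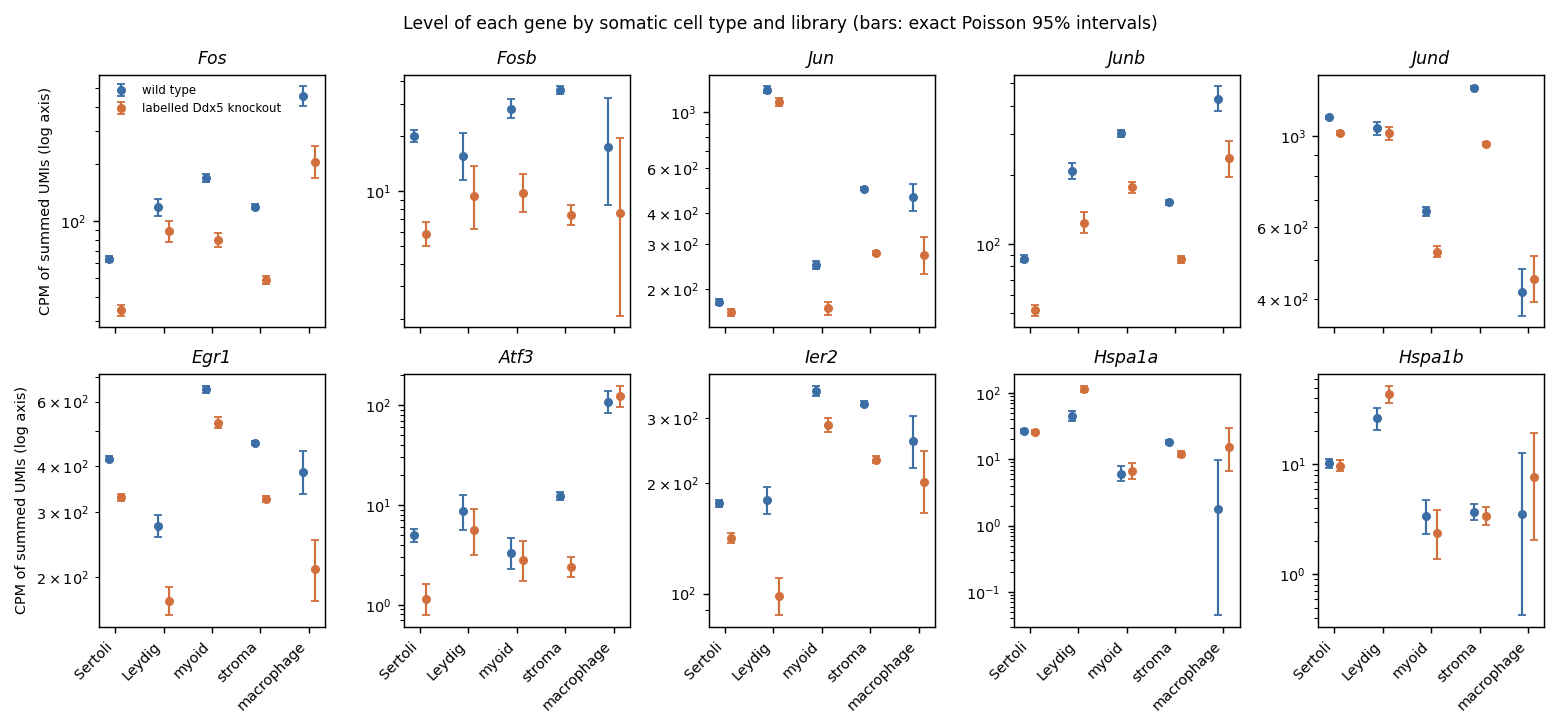
Level of each of the 10 genes in 5 somatic gates, in CPM of summed UMIs on a log axis, for the wild-type library (blue) and the library labelled knockout (orange), with exact Poisson intervals as bars. *Jun*, *Hspa1a* and *Hspa1b* are highest in Leydig cells and *Fos*, *Junb* and *Atf3* in macrophages, in both libraries.

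The members did not share one order of cell types. *Jun* was highest in Leydig cells, at 1229 CPM (1189 to 1269) and 1094 CPM (1056 to 1133), 6.94- and 6.78-fold above Sertoli cells, and was found in 97.2% and 97.9% of Leydig cells. Its order was the same in both libraries: Leydig, stroma, macrophage, myoid, Sertoli, with overlapping intervals for stroma and macrophage in both and for myoid and Sertoli in the library labelled knockout. *Hspa1a* and *Hspa1b* were also highest in Leydig cells, followed by Sertoli cells. In the library labelled knockout the intervals of Sertoli cells and macrophages overlapped for both genes. *Hspa1a* was 17.3-fold above its lowest gate, myoid, in that library.

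*Atf3* was highest in macrophages, at 109 and 124 CPM, and reached at most 12.3 CPM in the other somatic gates. *Fos* and *Junb* were highest in macrophages too, 7.20- and 4.96-fold above Sertoli cells in wild type, and 6.06- and 4.59-fold for the labelled library. *Egr1* was highest in myoid and lowest in Leydig cells, 2.35- and 3.05-fold apart. *Jund*, an AP-1 gene that many cells express without a stimulus, ran from 417 to 1311 CPM in wild type and from 450 to 1017 CPM in the labelled library, lowest in macrophages in both. *Fosb* was highest in stroma for wild type and in myoid cells for the labelled library, where its 4 neighbouring pairs in the order all overlapped.

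Past 2-fold over the mean of the other 4 somatic types, in the same type in both libraries, were 6 members (*Fos*, *Junb* and *Atf3* in macrophages, and *Jun*, *Hspa1a* and *Hspa1b* in Leydig cells). Of 19560 genes, 39% were, so 6 of 10 is read as a description of these genes and not as a property of the list. Summed, the 8 immediate early genes differed by 1.48-fold between Leydig cells and Sertoli cells over both libraries, while the heat shock pair differed by 12.3-fold between Leydig and myoid cells. Without *Jund*, which holds many of the UMIs of the first sum, the immediate early sum differed by 2.24-fold in wild type (2118 CPM in macrophages and 947 in Sertoli cells) and by 2.20-fold for the labelled library (1591 CPM in Leydig and 725 in Sertoli cells).

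The other immediate early genes, a list of 36 of which 34 were in the table, were mostly lower as well. Over all kept cells 29 of 34 were lower in the library labelled knockout, 12 past 1.5-fold and 0 higher past it, with a median ratio of 0.773. Over all genes 55.3% were lower, 9.57% lower past 1.5-fold and 4.45% higher past it. The 3 farthest from 1 with at least 100 UMIs were *Nr4a3* (1.16 and 0.468 CPM, ratio 0.404), an orphan nuclear receptor, *Egr2* (5.54 and 2.81 CPM, 0.507), a relative of *Egr1*, and *Maff* (5.57 and 3.01 CPM, 0.539), a small MAF factor. In the stroma 13 of 33 were lower past 1.5-fold (median 0.743), beside 5.27% of all genes. In Sertoli cells 9 of 33 were (0.784), beside 8.08%, and in myoid cells 9 of 33 (0.826), beside 5.21%. In Leydig cells 8 of 29 were lower and 3 higher past 1.5-fold, beside 5.72% and 5.8%. Those 3, chosen after their values were seen, were *Nr4a1* (17.3 and 39.7 CPM, ratio 2.30, 1.64 to 3.25), the nuclear receptor NUR77 that regulates steroid synthesis in Leydig cells, *Gadd45b* (14 and 29 UMIs) and *Mafk* (17 and 25 UMIs, with an interval of 0.799 to 3.04).

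The other heat shock and chaperone genes were nearer to level in Leydig cells than the pair. Of 26 such genes with at least 20 UMIs there, 0 were higher and 1 was lower past 1.5-fold, with a median ratio of 0.979. *Dnajb1*, the HSP40 partner of HSP70 and like it a target of heat shock factor 1, had a ratio of 0.919 (0.714 to 1.18). *Hsph1*, a nucleotide exchange factor for HSP70, had 58 and 77 UMIs and a ratio of 1.39 (0.976 to 1.99). *Bag3*, a co-chaperone, had 0.757 (0.509 to 1.12), *Hspa8*, the constitutive HSP70, 0.937 (0.889 to 0.987), and *Hsf1*, which encodes the factor itself, 1.21 (0.922 to 1.59). Over all kept cells 0 of 28 passed 1.5-fold (median 0.932), beside 9.57% of all genes lower and 4.45% higher past it, and the 3 farthest from 1 were *Hspa1l* (1.34, 0.959 to 1.87), *Hsph1* (0.807, 0.761 to 0.856) and *Hspb8* (0.828, 0.761 to 0.902). Of the integrated stress genes, targets of the kinases that sense amino acid and protein folding stress, 0 of 7 passed (median 0.914), beside the same shares. *Ppp1r15a*, the phosphatase subunit that ends this response, had a ratio of 0.726 (0.687 to 0.767), beside *Ddit4* (1.17) and *Asns* (0.865). The list differed between gates. In the stroma 7 of 7 were lower and 1 past 1.5-fold (median 0.747, beside 0.743 for the other immediate early genes), and in myoid cells 6 of 6 and 1 (0.820). Of all genes in these gates 51.3% and 51.7% were lower, and 5.27% and 5.21% past 1.5-fold. Among macrophages 3 of 3 were lower and 2 past 1.5-fold (0.464), beside 11.8% of genes. In germ cells 1 was lower and 3 of 6 were higher past it (1.34), beside 54.4% and 16.3% of genes. In Sertoli cells 4 of 7 were lower (0.965) and in Leydig cells 4 of 6 (0.898), beside 54.5% and 49.7% of genes. In both gates 0 passed 1.5-fold, beside 8.08% and 5.72% of genes lower and 4.33% and 5.8% higher past it.

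**Figure D4:**
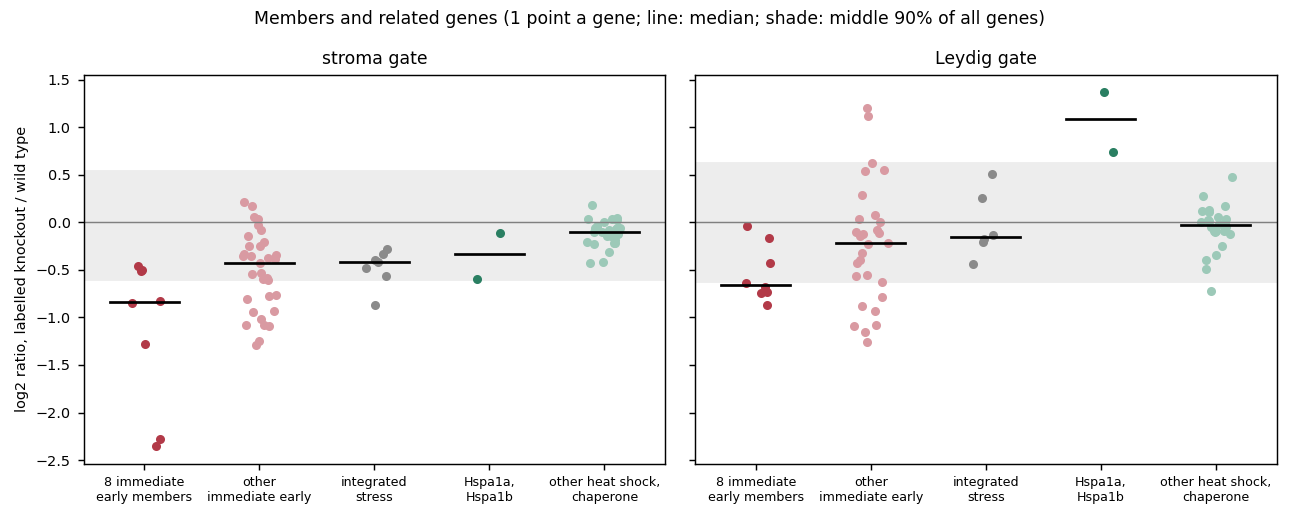
Log2 ratio of the library labelled knockout to wild type in the stroma gate (left) and the Leydig gate (right), 1 point per gene with at least 20 UMIs, for the members and 3 related lists, with the median as a line and the middle 90% of all genes as a band. In the Leydig gate *Hspa1a* and *Hspa1b* lie above the 26 other heat shock and chaperone genes.

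Over stromal cells of each library *Fos*, *Junb*, *Egr1* and *Ier2* correlated with each other, and *Jun* with *Jund*. Among 3590 wild-type stromal cells *Egr1* correlated with *Junb* (Pearson r of log-normalized values 0.51), *Ier2* (0.50) and *Fos* (0.46), and *Fos* with *Junb* (0.46). *Jun* correlated with *Jund* (0.64) and had values of -0.12 with *Egr1* and -0.08 with *Junb*, and *Jund* was negative against *Egr1* (-0.22) and *Junb* (-0.23). Among 3005 stromal cells of the library labelled knockout the values were 0.48, 0.49, 0.40 and 0.44 for the first group, 0.50 for *Jun* and *Jund*, 0.06 for *Jun* and *Junb*, and -0.22 for *Jund* and *Egr1*. The blocks were not closed. *Fos* and *Jun* were positive (0.10 and 0.17), and *Fosb* was positive with members of both, in wild type 0.31 with *Fos*, 0.19 with *Egr1*, 0.18 with *Jun* and 0.17 with *Jund*. *Atf3* had 0.26 with *Jund* in wild type and lay between -0.01 and 0.03 with every other member in the labelled library. Leaving out cells that also passed the myoid gate gave 0.63 and 0.50 for *Jun* and *Jund* and -0.19 and -0.19 for *Jund* and *Egr1*. Thinning to 5000 UMIs gave 0.55 and 0.40, and -0.18 and -0.18. These correlations are over cells of 1 library, which share its preparation and differ in depth, and cells are not replicates.

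**Figure D5:**
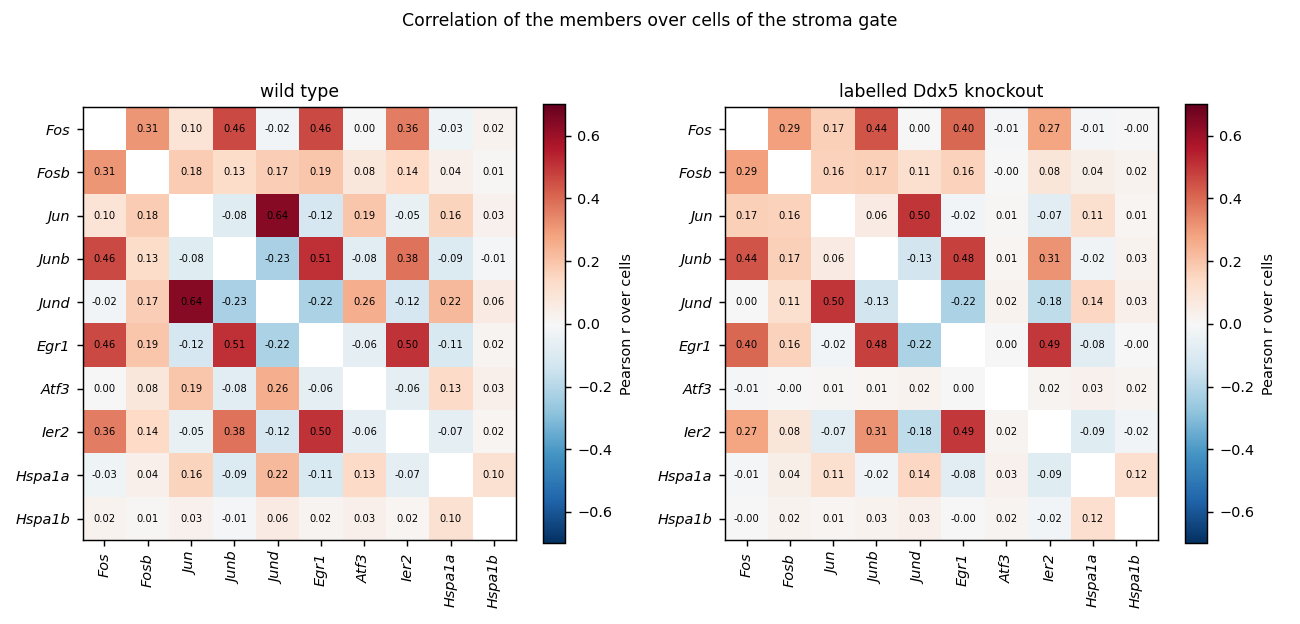
Pearson correlation of the 10 genes over cells of the stroma gate in each library, with the value in each square and blank squares on the diagonal. *Fos*, *Junb*, *Egr1* and *Ier2* form one block of positive values, and *Jun* with *Jund* another, at 0.64 for wild type and 0.50 for the labelled library.

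In Sertoli cells the values of the first block were lower. They ran from 0.13 (*Junb* and *Ier2*) to 0.34 (*Egr1* and *Ier2*) in wild type and from 0.25 to 0.41 for the same pairs in the labelled library, and *Jun* with *Jund* had 0.39 and 0.32. Thinning to 5000 UMIs lowered several pairs of the first block by more than 1.5-fold. It gave 0.17 and 0.23 for *Egr1* and *Ier2*, 0.17 and 0.23 for *Fos* and *Egr1*, and 0.06 and 0.11 for *Junb* and *Ier2*. *Fos* and *Junb* then had 0.08 and 0.13, and *Junb* and *Egr1* 0.07 and 0.16. *Jun* with *Jund* went to 0.25 in wild type and, falling by less than 1.5-fold, to 0.23 in the labelled library. *Jund* and *Egr1* were near 0 there (-0.05 and -0.01). *Hspa1a* and *Hspa1b* had an r of 0.10 and 0.12 in stroma and 0.02 and 0.03 in Sertoli cells. In counts this sparse a weak correlation is no finding.

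The variance over the mean was high in stromal cells for most members. At the same relative spread this measure rises with a gene's level, and genes were not matched on level. Its order over the members is therefore not one of relative spread. In wild-type stroma the thinned mean was 6.87 UMIs per cell for *Jund* and 0.0613 for *Atf3*. At 5000 UMIs per cell the variance of *Jund* over wild-type stromal cells was 4.36 times its mean, of *Jun* 3.75, of *Junb* 3.05, of *Egr1* 3.03 and of *Fos* 2.84, where the median gene had 1.04 and the 95th percentile was 1.49. *Atf3* lay below that percentile, at 1.37. The variance of *Hspa1a* was 2.64 times its mean in wild-type stroma, which includes the cell with 49 UMIs, and 1.13 in the other library. In Sertoli cells the values were lower. *Egr1* was highest there, at 1.97 and 2.41, while *Ier2* (1.23 and 1.34) and *Hspa1a* (1.05 and 1.08) lay below the 95th percentiles of 1.34 and 1.39, as did *Hspa1b* for wild type (1.10) and *Junb* for the labelled library (1.34).

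The genes most like the summed immediate early genes over cells were ranked by the lower of the 2 libraries' correlations. The sum is of plain UMIs and so is weighted towards *Jund*. In wild type *Jund* gave 51105 of 113835 UMIs in stroma and 40966 of 75965 in Sertoli cells. Among 10421 genes in stroma the first 3 were *Creb5* (0.32 for wild type and 0.26 for the labelled library), *Btg2* (0.25 and 0.28) and *Ccn1* (0.24 and 0.21), followed by *Vim*, *Meg3*, *Ahnak*, *Tubb2b*, *Cd44*, *Klf4* and *Zfp36*. Among 10971 genes in Sertoli cells they were *Btg2* (0.32 and 0.34), *Tnfrsf12a* (0.34 and 0.31) and *Rhob* (0.30 and 0.30), followed by *Creb5*, *Klf6*, *Ccn1*, *Zfp36l1*, *Sox4*, *Ddah2* and *Tubb2b*. *Btg2*, *Creb5*, *Ccn1* and *Tubb2b* were among the first 10 in both gates. *Btg2*, *Ccn1*, *Klf4*, *Zfp36*, *Rhob* and *Klf6* are themselves on the list of other immediate early genes. For the heat shock sum the highest values were 0.14 in stroma (*Cdkn1c*) and 0.10 in Sertoli cells (*Kazald1*), too weak to read.

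Mitochondrial share and depth moved with some members and not with others. In wild-type stroma the bin of at most 2.5% mitochondrial UMIs had 125 CPM of *Fos* and 486 CPM of *Egr1*, against 77.1 and 310 CPM from 2.5% to 5%. In the library labelled knockout these bins had 50.5 and 339 CPM, against 32.4 and 233 CPM, lower than wild type in both bins. In the few cells above these bins the direction varied. From 7.5% to 10% there were 12 and 11 stromal cells, with *Fos* at 51.7 and 78.4 CPM, *Jun* at 608 and 1056 CPM and the immediate early sum at 1741 and 2687 CPM, higher in the labelled library. From 5% to 7.5% (29 and 23 cells) the sum was 2245 and 1866 CPM, but 1191 and 1301 CPM (ratio 1.09, 0.898 to 1.32) without the cells that also passed the Leydig gate. In Sertoli cells the sum was higher in the labelled library in both upper bins, against the direction over all Sertoli cells. It was 1310 and 2119 CPM from 5% to 7.5% (35 and 15 cells, ratio 1.62, 1.46 to 1.79), with a ratio of 1.55 without the Leydig gate, and 555 and 1981 CPM from 7.5% to 10% (2 and 3 cells). Over all kept cells the sum was higher in the labelled library in both upper bins, at 1655 and 2412 CPM from 5% to 7.5% (160 and 91 cells, of which 76 and 67 passed the Leydig gate) and at 2176 and 2731 CPM from 7.5% to 10% (85 and 50 cells, of which 59 and 46 did). *Jun* stood at 480 and 926 CPM and at 868 and 1229 CPM in these bins. Without the cells of the Leydig gate the all-cell sum was still higher in the labelled library, at 920 and 1539 CPM in 84 and 24 cells and at 580 and 2277 CPM in 26 and 4.

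The heat shock pair was higher in the labelled library in these upper bins, with 1 exception. Its sum was 37.3 and 169 CPM in stroma from 5% to 7.5% and 59.6 and 161 CPM from 7.5% to 10%, 25.7 and 115 CPM in Sertoli cells from 5% to 7.5%, and 34.9 and 154 CPM and 53.5 and 183 CPM over all kept cells. It was lower in Sertoli cells from 7.5% to 10%, with 2 UMIs in 2 wild-type cells (31.7 CPM) and 0 in 3 cells of the other library. Many cells of the upper bins also passed the Leydig gate, 14 of 29 and 11 of 23 in the first stromal bin and 6 of 12 and 10 of 11 in the second. Without them the pair had 4 UMIs against 1 and 0 against 0 in stroma. It had 20 against 3 UMIs in Sertoli cells (ratio 1.22, 0.232 to 4.11), and over all kept cells 28 against 4 (1.31, 0.335 to 3.76) and 8 against 0, too few to compare. Leaving these cells out was chosen after the data were seen. By depth, *Jun* in wild-type stroma fell from 669 CPM in the shallowest of 4 depth groups to 410 CPM in the deepest, and *Jund* from 1651 to 1092 CPM, while *Fos* was 91.9 and 128 CPM. In the same depth ranges *Jun* stood at 350 and 249 CPM and *Fos* at 34.5 and 54.3 CPM in the library labelled knockout.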

How the data were processed

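The deposited table holds UMI counts per gene for each barcode, which the authors made with Cell Ranger 3.1.0 on GRCm38 extended by the sequences of GFP and Cre, with no normalization. The submitters' processing notes also name Seurat 3.1.5. Barcodes end in a suffix and no file pairs suffixes with genotypes. They were paired by the study's numbers of cells after the same filter, which the kept barcodes of suffix 3 (6329, wild type) and suffix 4 (4950, knockout) match to within 1 cell. The suffixes hold 6763 and 5423 barcodes and 84263163 and 67558106 UMIs. Python 3.11.15, NumPy 2.4.6, SciPy 1.17.1, pandas 2.3.3, matplotlib 3.10.9 and scanpy 1.11.5 were used.

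Kept barcodes were gated on markers, and the UMIs of each gate and library were summed and scaled to CPM. Intervals are at the 95% level, Poisson for a CPM, conditional binomial for a ratio and Clopper-Pearson for a share. No test was run, since cells are not replicates. Differences were counted past 1.5-fold between libraries and past 2-fold between types, among genes with 20 or more UMIs in total. A group at 0 was set to 3 UMIs. For shares, cells were thinned to 5000 UMIs, which left out 97 wild-type and 68 labelled cells. Scrublet called 4.49% and 5.98% of kept cells doublets, and these stayed in the main values. Correlations are of log(1 + UMIs scaled per cell). The ratio and its interval were checked on sums drawn from the Poisson model that the interval assumes. That check leaves out the spread between cells.

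Named were all members, genes of 3 related lists by role or as the 3 farthest from 1 with at least 100 UMIs, and the 10 genes most like each sum. Members and lists were chosen with earlier results of these data known. Alternatives changed the limits on genes, mitochondrial UMIs, gates and UMIs, the treatment of doublets and of cells in several gates, the CPM denominator, the depth and the weight of cells and types.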

Additional observations from a re-analysis of the deposited data

Results flagged for a closer look

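*Hspa1a* differed in opposite directions between the libraries in a pair of cell types. In the Leydig gate it was higher in the library labelled knockout, with a ratio of 2.58 (2.11 to 3.17), and in the stroma gate it was lower, with a ratio of 0.660 (0.583 to 0.747). The difference between the gates was not tested, since each genotype is 1 library. Without the wild-type cell that held 49 *Hspa1a* UMIs the stromal ratio was 0.708, and in stromal cells of exactly 1 gate it was 0.509.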

How the results depend on the processing

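No paired analysis was possible because the barcodes carry no replicate number, and for the same reason no replicate could be left out. Germ cells (12) and macrophages (23) of the labelled library limit what these gates can show. With barcodes of exactly 1 gate no heat shock fold between types could be given, since macrophages then have 0 UMIs of the pair, and doubled gate limits do not touch values over all kept cells. Under the alternatives run, the summed immediate early genes were lower in the labelled library in all 6 gates, and the Leydig heat shock ratio ran from 2.00 to 2.52. Of 99 values by gate 98 kept their direction. The exception was the heat shock ratio in myoid cells (0.964, 0.692 to 1.34), which was 1.21 with doubled limits. The count past 1.5-fold (24 of 47) ran from 19, of 45 at the 5% limit on mitochondrial UMIs and of 43 in barcodes of 1 gate, to 24. The causes of the changes below were not tested.

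The immediate early ratio over all kept cells (0.755) became 0.731 at up to 5% mitochondrial UMIs, 0.748 in barcodes of 1 gate, 0.747 without doublets, 0.722 thinned, 0.720 as a mean over cells, 0.749 with types weighted equally and 0.691 without *Jund*, an alternative added after the data were seen. The heat shock ratio (0.949) became 0.790, 0.890, 0.729 (thinned), 0.802 (mean over cells) and 1.45 with equal weight, on the other side of 1. There Leydig cells (ratio 2.25) and macrophages, with 3 and 12 UMIs of the pair, each count as much as stroma. The fold between types became 1.33, 1.57 and 1.52 (5% limit, 1 gate, no doublets) for the immediate early genes, and 6.05 (5% limit), 17.4 (no doublets) and 17.6 (doubled limits) for the heat shock pair.

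By gate, the immediate early ratio at the 5% limit was 0.836 in Sertoli, 0.941 in Leydig and 0.451 in germ cells. In barcodes of 1 gate it was 0.828 in Sertoli, 0.894 in myoid, 0.642 in stroma, 0.617 in macrophages and 0.695 in germ cells. This setting left few cells in 3 of these gates: 54 and 25 myoid cells, 22 and 13 macrophages and 66 and 8 germ cells. It was 0.714 in myoid cells without doublets, 0.716 in germ cells outside ribosomal protein and mitochondrial genes, 0.831 in Sertoli cells and 0.598 in macrophages when thinned, 0.834 in Sertoli cells and 0.653 in stroma as a mean over cells, and 0.649 in stroma without the myoid gate (added after the data were seen). The heat shock ratio in stroma was 0.571 (5% limit), 0.524 (1 gate), 0.529 (thinned) and 0.594 (mean over cells), and in Sertoli cells 0.868 (thinned).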

Other observations

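Barcodes left out of the comparisons held the members too. Those with fewer than 2000 genes (354 wild-type and 404 labelled barcodes, at median depths of 2400.5 and 2327 UMIs) had 208 and 115 CPM of *Fos* and 349 and 292 CPM of *Junb*, above the 95.6 and 47.3 CPM and the 124 and 76.4 CPM of the kept cells. *Egr1* was below the kept cells there, at 338 and 208 CPM against 429 and 321 CPM. Barcodes with more than 10% mitochondrial UMIs (80 and 69) had 642 and 1176 CPM of *Jun*, and 15.1 and 111 CPM of *Hspa1a*. In these, *Egr1* (181 and 228 CPM) and *Ier2* (56.2 and 93.0 CPM, against 247 and 189 in kept cells) were below the kept cells.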
